A study of Mus musculus with 23 samples.

Results

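The proliferin genes Prl2c2, Prl2c3 and Prl2c4 were followed through 6 RNA-seq samples of mouse embryonic stem cells (ESCs). They are 3 of the 23369 gene names in the deposited tables, and they were chosen by their FPKM in these same samples, because Prl2c4 was among the genes with the clearest difference between the conditions. All that follows on their own levels is therefore a description without a test. FPKM counts the fragments mapped to a gene, divided by gene length and by the number of fragments mapped in that sample, so that levels of different genes can be set side by side.

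In the ESCs of all samples both alleles of Kdm2b are floxed (Kdm2b fl/fl) and a tamoxifen-inducible Cre (ERT2-Cre) is expressed from the Rosa26 locus. The labels call the line MS12, which by the study's methods is the line the floxed allele was made in, with the Kdm2b fl/fl cells raised from a later cross of mice. Recombination removes an exon that codes for much of the ZF-CxxC domain, through which KDM2B binds DNA. ESCs at passages p10-p20 were grown on feeders, Mitomycin C inactivated mouse embryonic fibroblasts, plated overnight without them, and then left untreated (3 samples) or given 4-hydroxytamoxifen for 72 hr (3 samples). Each replicate number, 1 to 3, occurs once in each condition, and the labels give all samples the same line name. The series holds 23 samples in all. Its 17 ChIP and input samples were not analysed here.

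The sample labels and the file names disagree on the condition of all 6 samples. The labels were followed, and under the other reading each direction between the conditions below turns around while differences between replicate numbers stay as they are. The labels state a dose of 800 nM and the series text 800 µM. Kdm2b itself was listed at 27.0, 21.6 and 27.7 FPKM in untreated replicates 1, 2 and 3 and at 19.9, 21.9 and 25.0 in the tamoxifen samples. These ranges overlap, and a level over the whole gene does not measure the loss of 1 exon. The FPKM of a sample summed to between 549379 and 1045707, and read numbers are not in the tables, and the depth behind a value was not estimated here. The 12 ESC markers on a fixed list, such as Pou5f1 and Nanog, were all expressed, with a summed level of 3114 to 5859 FPKM.

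Proliferins are secreted glycoprotein hormones of the prolactin and growth hormone family, which in rodents has expanded into a large cluster of genes. They are best known as products of the trophoblast giant cells of the placenta, where they act on blood vessel growth, and they were also found in mouse fibroblast lines after stimulation with serum. The receptor for insulin-like growth factor 2, encoded by Igf2r, binds proliferin, and AP-1 factors and the glucocorticoid receptor are known regulators of proliferin transcription.

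How far the RNA of one member can be told from that of another decides what its FPKM measures. Therefore, transcript models of the mm9 genome (NCBIM37, GENCODE M1) were compared. Prl2c2 and Prl2c3 each have 5 exons on the minus strand of chromosome 13 and a transcript of 850 bases, of which 675 are coding with the stop codon. The transcripts match at 846 bases and mismatch at 4, an identity of 99.5%. The longest stretch without a difference is 465 bases. Of the 4 mismatches 3 are coding and 1 lies in the 5′ UTR. With positions counted from the A of the start codon in Prl2c2, and the Prl2c2 base first, the coding ones are T14C in exon 1, C200A in exon 2 and T319G in exon 4. At 3 of the 4 positions the related gene Prl2c5 has the base of Prl2c2, and at 1 the base of Prl2c3.

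The following coding windows have the length of 1 read (51 bases) and lie within 1 exon. They show how few bases separate the genes. Bases that are not the same in all genes shown are in capitals. The first set spans C200A.
Prl2c2 (chr13:13094401-13094451, minus strand): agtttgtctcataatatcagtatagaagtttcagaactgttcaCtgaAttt
Prl2c3 (chr13:12889098-12889148, minus strand): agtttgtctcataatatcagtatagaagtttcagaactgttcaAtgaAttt
Prl2c5 (chr13:13278182-13278232, plus strand): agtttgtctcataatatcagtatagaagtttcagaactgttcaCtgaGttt

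The second set, in exon 4, spans T319G, and Prl2c5 has 4 differences from Prl2c2 in it.
Prl2c2 (chr13:13089684-13089734, minus strand): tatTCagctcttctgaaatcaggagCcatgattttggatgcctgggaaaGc
Prl2c3 (chr13:12884391-12884441, minus strand): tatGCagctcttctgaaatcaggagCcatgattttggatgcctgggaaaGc
Prl2c5 (chr13:13282853-13282903, plus strand): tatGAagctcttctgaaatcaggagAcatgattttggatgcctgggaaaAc

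The third set, in exon 2, is identical in all of them, and a read from it can be placed at any of these genes.
Prl2c2 (chr13:13094526-13094576, minus strand): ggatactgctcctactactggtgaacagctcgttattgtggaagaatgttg
Prl2c3 (chr13:12889223-12889273, minus strand): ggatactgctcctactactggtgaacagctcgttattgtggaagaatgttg
Prl2c5 (chr13:13278057-13278107, plus strand): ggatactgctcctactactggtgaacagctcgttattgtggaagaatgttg

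Of the 800 windows of 51 bases in the Prl2c2 transcript, 78.8% occur unchanged in Prl2c3, 17.9% in Prl2c5 and 12.8% in Prl2c1. Only 11.8% of them are private to Prl2c2 among these 4 transcripts, against 21.2% in Prl2c3, 66.8% in Prl2c5 and 72.3% in Prl2c1. No window of these transcripts occurs in a protein-coding transcript of any other gene. Both mates of a pair can bear a difference, and the share of pairs that can be placed was not computed.

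**Figure D1:**
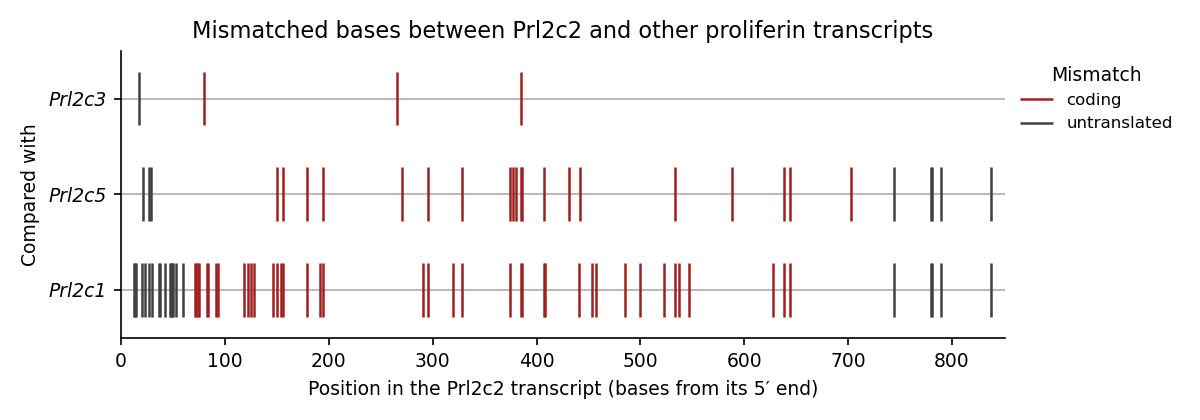
Mismatched bases between the Prl2c2 transcript (horizontal axis, bases from its 5′ end) and those of Prl2c3, Prl2c5 and Prl2c1 (rows), with coding and untranslated bases in different colours. Prl2c3 has 4 marks, Prl2c5 28 and Prl2c1 61, and gaps are not drawn.

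Prl2c4 could not be compared in this way, because the annotation has no transcript of that name. With mm9 positions as the files give them, Prl2c3 is the row at chr13:12883087-12892346 and Prl2c4 the row at chr13:12883082-12892325. Their starts differ by 5 bases and their ends by 21. The shared 9238 bases make up 99.8% of the Prl2c3 row and 99.9% of the Prl2c4 row. GENCODE M1 has 1 gene in this interval, Prl2c3, and RefSeq (GRCm38.p6) gives Prl2c4 as an older name of Prl2c3. Both rows therefore describe 1 place in the genome. Prl2c2 is the row at chr13:13088390-13097597, which no other row overlaps, 196044 bases beyond Prl2c3. Rows that share a place to this extent (at least 90% of each) carry 256 gene names in the tables, of which 76 were tested.

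Promoter sequences (250 bases before the start of transcription and 50 after it) were taken from the RefSeq table, in GRCm38.p6, for Prl2c3 and Prl2c5. Prl2c3 is the only member with an entry there, so no promoter of Prl2c2 is shown, and Prl2c5 was added for comparison. The levels of both followed the order of the replicate numbers, as did those of Prl2c2 and Prl2c1. The Prl2c3 and Prl2c5 promoters are 95.3% identical. Capitals mark motifs found on either strand, namely TGANTCA (the AP-1 site with any base in its centre), TTAGTCA and the TATA-box letters TATATAA, all picked with the sequences in view.
Prl2c3 (chr13:12800030-12800329, minus strand): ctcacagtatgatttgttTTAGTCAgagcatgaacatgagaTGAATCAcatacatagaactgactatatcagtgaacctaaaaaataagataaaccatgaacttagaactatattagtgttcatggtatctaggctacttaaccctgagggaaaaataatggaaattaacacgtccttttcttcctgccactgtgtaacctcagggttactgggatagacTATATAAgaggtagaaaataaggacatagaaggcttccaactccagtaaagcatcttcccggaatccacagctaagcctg
Prl2c5 (chr13:13182466-13182765, plus strand): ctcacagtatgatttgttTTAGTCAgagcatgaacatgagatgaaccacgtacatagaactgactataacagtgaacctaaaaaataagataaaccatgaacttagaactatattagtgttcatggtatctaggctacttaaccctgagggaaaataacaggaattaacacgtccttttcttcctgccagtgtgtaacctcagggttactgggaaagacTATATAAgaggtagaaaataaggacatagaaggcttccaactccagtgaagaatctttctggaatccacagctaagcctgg

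With the start of transcription at 0, TTAGTCA begins at −232 in both promoters and occurs in 2.35% of 32851 promoters of the same length. TATATAA begins at −30 in Prl2c3 and at −31 in Prl2c5, and 3.24% of promoters hold it. TGANTCA begins at −209 in Prl2c3, is not among the letters of the Prl2c5 window, and is held by 7.81% of promoters. None of the motifs overlaps another here, and a match of letters is no measurement of binding.

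Prl2c2 had the highest level of the 3 members in 5 of the 6 samples. It was listed at 3.09, 23.0 and 38.7 FPKM in untreated replicates 1, 2 and 3 and at 1.39, 10.5 and 23.9 FPKM in tamoxifen replicates 1, 2 and 3. Replicate 1 was the lowest and replicate 3 the highest in both conditions. The means were 21.6 ± 17.8 FPKM untreated and 11.9 ± 11.3 with tamoxifen (SD, n = 3 each), so that the conditions overlapped widely. In 4 of the 6 samples the deposited FPKM of Prl2c2 exceeds its own deposited upper bound, as in untreated replicate 3, where the bounds are 26.2 and 33.2. The same holds for 16.0% to 19.3% of all rows with at least 1 FPKM, and for no sample of Prl2c3 or Prl2c4.

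Prl2c3 showed the same order. Its levels were 1.06, 14.5 and 26.3 FPKM in the untreated samples and 1.47, 8.69 and 19.6 FPKM with tamoxifen. The means were 13.9 ± 12.6 and 9.91 ± 9.12 FPKM (SD, n = 3 each). Unlike Prl2c2, it was a little higher with tamoxifen in replicate 1, where the deposited bounds of 0.454 to 1.70 (untreated) and 0.857 to 2.07 (tamoxifen) overlap.

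Prl2c4 was the lowest of the 3 in 5 of the 6 samples and the one whose conditions did not overlap. It was listed at 1.58, 2.16 and 4.72 FPKM in the untreated samples, with deposited bounds of 0.872 to 2.27, 1.22 to 3.12 and 3.15 to 6.30. It was listed at 0 in all 3 tamoxifen samples, with upper bounds of 0.146, 0.133 and 0.182 FPKM and a status of OK. Among all genes tested, 5.4% had all 3 tamoxifen samples below all 3 untreated ones. An exact 0 in such a table can be a failed estimate, and no fold change is given. Prl2c4 passed the filter for testing (at least 0.5 FPKM in at least 3 samples) through its untreated samples alone, whereas Prl2c2 and Prl2c3 passed it in both conditions. Without pairing by replicate number, limma with Benjamini-Hochberg adjustment called 4 genes (0.0308% of the 12997 tested). That fit used the values that made Prl2c4 a member, so no result of it is given for Prl2c4. At an unadjusted p under 0.05 there were 623.

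**Figure D2:**
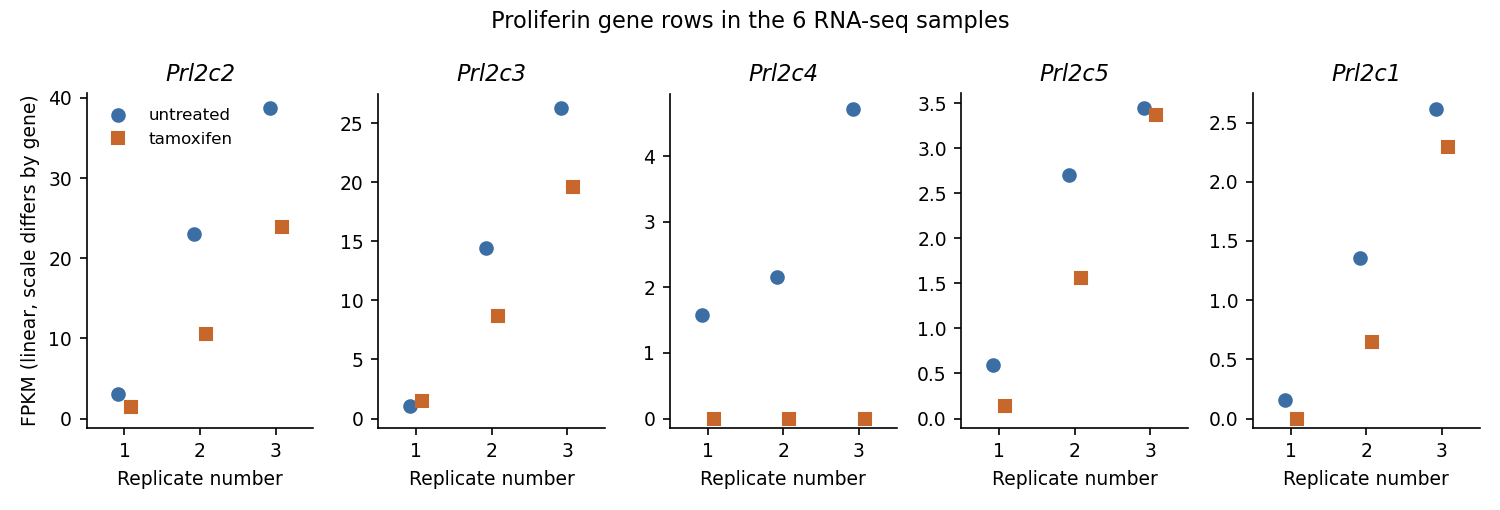
FPKM of the members Prl2c2, Prl2c3 and Prl2c4 and of Prl2c5 and Prl2c1 (vertical axes, linear, a scale for each gene) against replicate number, with circles for untreated and squares for tamoxifen samples, 1 point per sample. Prl2c2 reaches 38.7 and Prl2c3 26.3 FPKM in untreated replicate 3, while Prl2c4 lies at 0 in every tamoxifen sample.

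Because Prl2c3 and Prl2c4 occupy 1 place, their rows were also added, a choice made after the values had been seen. Prl2c4 took 59.8%, 13.0% and 15.2% of the sum in untreated replicates 1, 2 and 3, and 0% with tamoxifen. Thus in untreated replicate 1 the larger portion stood in the Prl2c4 row, and in all the others in the Prl2c3 row. The sum was 2.63, 16.6 and 31.0 FPKM in the untreated samples and 1.47, 8.69 and 19.6 FPKM with tamoxifen. It followed Prl2c2 closely, at 0.854, 0.723 and 0.801 of its level in the untreated samples and 1.06, 0.828 and 0.819 with tamoxifen. Between the lowest and the highest of these ratios lies a factor of 1.46, while for Prl2c3 alone over Prl2c2 (0.343 to 1.06) it is 3.08. At the level of the locus there was thus no switch to 0. Since 78.8% of the Prl2c2 windows of read length occur unchanged in Prl2c3, the part of shared reads in the likeness of the locus to Prl2c2 cannot be told apart. Of the 119 tested genes that were listed at 0 in some sample and at 2 FPKM or more in another, 14 share a place with another row, Prl2c4 among them. Of all 12997 genes tested, 76 share a place to this extent. Prl2c4 was chosen for its difference between the conditions and is counted here, so these counts are a description and were not tested. Whether fragments were assigned differently to the Prl2c3 and Prl2c4 rows in the conditions was not tested.

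**Figure D3:**
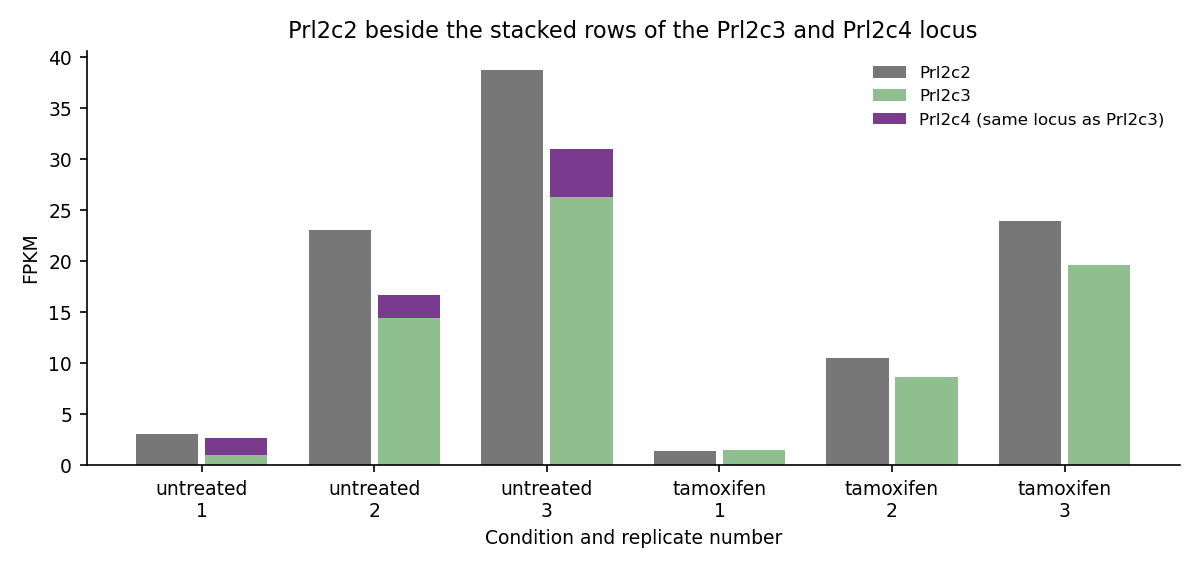
FPKM (vertical axis, from 0) of Prl2c2 (grey) and, beside it, of Prl2c3 (green) with Prl2c4 (purple) stacked on it, for each of the 6 samples. The stacked bars stand at 0.723 to 1.06 of the Prl2c2 bar, and the purple portion is found in the untreated samples.

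For Prl2c2, Prl2c3 and their sums, replicate 1 differed from replicates 2 and 3 by more than the conditions differed within a number. For Prl2c4, listed at 0 with tamoxifen, the reverse held, and its untreated level was 1.37 times as high in replicate 2 and 2.99 times as high in replicate 3 as in replicate 1. The 3 members together reached 5.72, 39.7 and 69.7 FPKM in untreated replicates 1, 2 and 3, and 2.85, 19.2 and 43.5 FPKM with tamoxifen. In the untreated samples replicate 2 was 6.94 times and replicate 3 12.2 times the level of replicate 1. With tamoxifen the factors were 6.72 and 15.2. After scaling to TPM they were 3.64 and 8.31 untreated and 4.49 and 14.6 with tamoxifen, with the order of the samples kept.

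Averaged over both conditions, the members' sum on the log2(FPKM + 0.1) scale was 2.74 higher in replicate 2 and 3.73 higher in replicate 3 than in replicate 1, while the medians over all genes tested were −0.05 and −0.03. Of the 12997 genes 31 had a larger difference between replicates 3 and 1, among them the members Prl2c2 and Prl2c3 and their relative Prl2c1. For Prl2c2 the difference between replicates 3 and 1 was 3.81 and for the Prl2c3 and Prl2c4 locus 3.58. Both replicate 1 samples lay below the other 4 for 2 of the 3 members, Prl2c2 and Prl2c3, and for 19.8% of all genes. These members were also in the order 1, 2, 3 in both conditions, as were 11.8% of all genes. Differences between replicate numbers were common in these samples, as limma's F test for them, with Benjamini-Hochberg adjustment, called 62.8% of the genes.

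Within each replicate number the members' sum was lower with tamoxifen. It stood at 0.499, 0.484 and 0.624 of the untreated level in replicates 1, 2 and 3, which is −0.98, −1.04 and −0.68 on the log2 scale. For Prl2c2 the ratios were 0.450, 0.456 and 0.618. The Prl2c3 row gave 1.39, 0.600 and 0.745, and with Prl2c4 added the locus gave 0.557, 0.522 and 0.632. These ratios are close to those of Prl2c2, with which Prl2c3 shares most windows of read length. Hence 2 of the 3 members, Prl2c2 and Prl2c4, were lower with tamoxifen in all 3 numbers, as were 28.2% of all genes. Prl2c4 was chosen for its difference between the conditions, so its direction here is no separate result. With the replicate number as a block, limma with Benjamini-Hochberg adjustment called 10.4% of all genes (563 higher and 787 lower with tamoxifen), and since the members were chosen on this contrast no test of theirs is given.

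The ESCs had been kept on fibroblasts until the night before treatment, and fibroblast markers were therefore measured beside the proliferins. Of 28 markers on the list, 26 passed the filter. Their summed level was 294.0, 569.4 and 608.7 FPKM in untreated replicates 1, 2 and 3 and 360.3, 505.3 and 483.0 FPKM with tamoxifen. In FPKM, replicate 1 was thus the lowest in both conditions, but this order depends on the scaling. Divided by the FPKM total of each sample (TPM), the sums were 535, 544 and 756 untreated and 580, 544 and 744 with tamoxifen, so that replicate 1 was not the lowest with tamoxifen and hardly differed from replicate 2 without it. Of the 26 markers 20 differed between replicate numbers in limma's F test with Benjamini-Hochberg adjustment, and in 18 both replicate 1 samples lay below the other 4. Over all genes tested the shares were 62.8% and 19.8%. In TPM the marker counts were 16 and 11, and the F test called 8901 of all 12997 genes. In bulk samples, fewer cells of a type and less RNA per cell cannot be told apart.

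The defining fibroblast markers were all expressed. Col1a1 and Col1a2, which encode the chains of type I collagen, Col3a1 (type III collagen), the surface protein gene Thy1, the proteoglycan gene Dcn, the matrix protein gene Postn and the mesenchymal transcription factor gene Prrx1 summed to 37.1 to 102 FPKM in the untreated and 45.9 to 99.4 in the tamoxifen samples. Of these 7, all but Postn differed between replicate numbers, as did 62.8% of all genes tested. Col1a2 had 11.5, 33.2 and 19.1 FPKM in the untreated samples and 16.3, 31.8 and 19.1 with tamoxifen. Prrx1 had 0.740, 2.00 and 3.86 FPKM untreated and 0.521, 1.72 and 3.18 with tamoxifen, which is the order of the proliferins. None of the other defining markers was in this order in both conditions. Of the 26 tested fibroblast markers 3 were, against 11.8% of all genes tested.

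Prl2c2, Prl2c3 and the members' sum differed more between replicate numbers than the typical fibroblast marker. The markers' median log2 difference was 1.18 between replicates 2 and 1 and 0.93 between replicates 3 and 1, against 2.74 and 3.73 for the members' sum. Prl2c4, listed at 0 with tamoxifen, had smaller differences of 0.22 and 0.76. In TPM, which moves the medians of all genes tested to −0.79 and −0.33, the markers had 0.43 and 0.64 and the members 2.00 and 3.44. From replicate 2 to replicate 3 the median marker changed by −0.22, and 7 of the 26 were higher in replicate 3 in both conditions, whereas the members' sum was 0.99 higher. In TPM the median marker changed by 0.18 instead, 15 of the 26 were higher in replicate 3 in both conditions, and the members' sum was 1.44 higher, with a median of 0.53 over all genes. The direction of the markers from replicate 2 to replicate 3 therefore depends on the scaling. Set against the summed markers, the members had 19.4, 69.7 and 114 FPKM per 1000 FPKM of the list in the untreated samples and 7.93, 38.0 and 90.0 with tamoxifen. This ratio varied 14.4-fold over the samples, and the marker sum 2.07-fold. The genes Fn1, Tagln and S100a4 make up much of that sum, so its range is not that of each marker. The markers with the largest range over replicate numbers were the lysyl oxidase gene Lox, Prrx1, the growth factor receptor gene Pdgfra and Fbln2, which encodes a matrix protein. Lox had 1.82, 9.61 and 9.45 FPKM untreated and 0.479, 7.37 and 6.97 with tamoxifen. How far feeder fibroblasts account for the proliferin RNA was not tested.

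**Figure D4:**
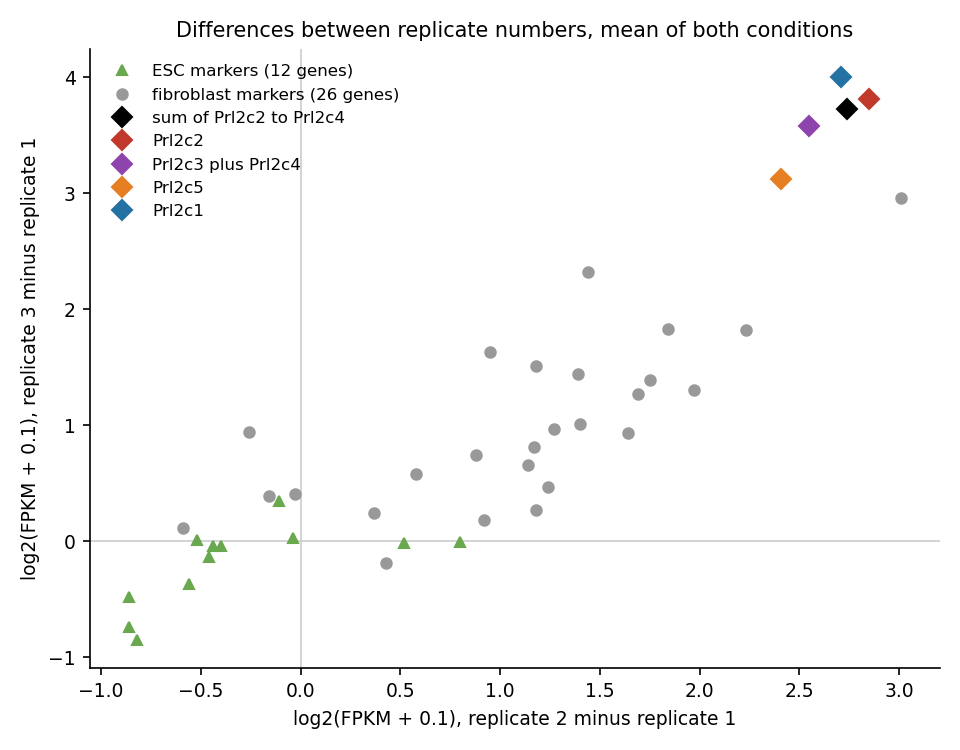
Difference in log2(FPKM + 0.1) of replicate 2 (horizontal axis) and replicate 3 (vertical axis) from replicate 1, as the mean of both conditions, for the proliferin rows (diamonds), 26 fibroblast markers (circles) and 12 ESC markers (triangles), 1 point per gene or sum. The members' sum lies at 2.74 and 3.73, and the markers of fibroblasts have medians of 1.18 and 0.93.

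Between the conditions the direction of the fibroblast list depended on how it was summarized. With tamoxifen its summed FPKM stood at 1.23, 0.887 and 0.793 of the untreated level in replicates 1, 2 and 3. The smooth muscle gene Tagln, at 73.2 FPKM untreated and 137 with tamoxifen in replicate 1, makes up much of these sums. The mean log2 level over the markers was instead lower with tamoxifen in all 3 numbers, with differences of −0.12, −0.19 and −0.15. In TPM these were −0.29, −0.03 and 0.15, and after quantile normalization 0.01, −0.18 and −0.11. The mean log2(FPKM + 0.1) of the 26 markers was 2.45 ± 0.62 untreated and 2.29 ± 0.59 with tamoxifen (SD, n = 3 each), a difference of −0.16 (exact permutation test, two-sided, p = 0.5, where 0.1 is the smallest p that 3 against 3 samples allow). Paired by replicate number, the exact sign permutation test gave p = 0.25, the smallest that 3 pairs allow. Without untreated replicate 2 this difference was 0.053 and without tamoxifen replicate 1 it was 0.186. No marker was called between the conditions by limma with Benjamini-Hochberg adjustment (1 at an unadjusted p under 0.05). With the replicate block 2 were called lower, the transcription factor gene Twist1 (log2 difference −0.84, adjusted p = 0.016) and Fbln2 (−0.43, adjusted p = 0.046). The block called 10.4% of all genes.

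Other members of the prolactin family were hardly expressed. Of 24 family genes measured beside the members, 14 were at 0 in all samples and 3 reached 0.5 FPKM in any sample. The highest were the relatives most like the members. Prl2c5, with 95.8% of its transcript identical to Prl2c2, was listed at 0.597, 2.70 and 3.44 FPKM untreated and 0.135, 1.56 and 3.37 with tamoxifen. Prl2c1, at 90.5% identity, was listed at 0.153, 1.35 and 2.62 FPKM untreated and 0, 0.648 and 2.30 with tamoxifen. Both followed the order 1, 2, 3 in each condition, as Prl2c2 did. Prl2c5 stood at 0.0890 to 0.194 of the Prl2c2 level. Since they share windows of read length with the members, the part of shared reads in these values cannot be told apart. The third, Prl2a1, reached 0.756 FPKM in tamoxifen replicate 2 and at most 0.116 elsewhere.

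Markers of trophoblast giant cells, the placental source of proliferin, were mostly absent. Prl3b1, a placental lactogen gene, was at 0 in all samples, Prl3d1, another placental lactogen gene, was at most 0.182 FPKM, and the cathepsin gene Ctsq at most 0.0374 FPKM. Hand1, a transcription factor gene of giant cells that other lineages also express, had 6.69, 16.5 and 11.7 FPKM untreated and 4.99, 11.2 and 7.71 with tamoxifen. Among 12 tested genes of a broader trophoblast list, 5 differed between replicate numbers, against 62.8% of all genes. None of the 12 was called between the conditions by limma with Benjamini-Hochberg adjustment (2 at an unadjusted p under 0.05). With the replicate block 1 of these was called higher and 5 lower with tamoxifen, where 10.4% of all genes were called. Among the 12 ESC markers none was called between the conditions with or without the block (4 and 0 at an unadjusted p under 0.05). Between replicate numbers 7 of them differed, against 62.8% of all genes.

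Of the receptors, Igf2r was expressed at 16.5, 32.3 and 21.7 FPKM untreated and 11.1, 27.1 and 19.3 with tamoxifen, with replicate 1 lowest and replicate 2 highest. Prlr, the prolactin receptor gene, was at most 0.590 FPKM. Among the 8 genes of AP-1 factors and the glucocorticoid receptor, 7 differed between replicate numbers in limma's F test, with both signs, as did 62.8% of all genes. Fos fell to its lowest in replicate 3, with 43.8, 12.2 and 2.19 FPKM untreated and 9.18, 12.8 and 1.94 with tamoxifen. Fosl1, another AP-1 gene, was 0, 2.28 and 7.14 FPKM untreated and 0, 0 and 2.51 with tamoxifen. Nr3c1, which encodes the glucocorticoid receptor, was in the order of the proliferins, at 2.54, 4.00 and 5.83 FPKM untreated and 1.18, 2.66 and 3.59 with tamoxifen. Of the 8 genes 2 were in this order, Nr3c1 and Fosl2, as were 11.8% of all genes. No gene of this list was called between the conditions without the block (1 at an unadjusted p under 0.05), and with it limma with Benjamini-Hochberg adjustment called Junb (log2 difference −0.71, adjusted p = 0.011) and Nr3c1 (−0.77, adjusted p = 0.023) lower. Of all genes, 10.4% were called with the block.

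The genes most like the proliferins were sought by Pearson's r with the members' sum over the 6 samples, among 3251 tested genes whose log2 values had an SD of at least 0.5. The first 10 were Chic1, Fam198b, C230081A13Rik, Kitl, S100a4, Zfp40, Sdpr, Gm2115, Cav2 and Zfp160, with r from 0.9995 to 0.9956. S100a4, which encodes a calcium-binding protein used as a fibroblast marker, had 51.7, 123 and 138 FPKM untreated and 39.7, 85.8 and 122 with tamoxifen. Of the 21 fibroblast markers ranked, no other was among the first 10. The others ranked from 62 (Snai2, r = 0.983) to 1882 (Tagln, r = −0.061). Kitl, the gene of the KIT ligand, had 1.84, 4.72 and 6.73 FPKM untreated and 1.39, 3.65 and 4.99 with tamoxifen. Sdpr and Cav2 belong to caveolae, the pits of the plasma membrane. Among the 10 the difference between replicates 3 and 1 was 1.22 to 2.66 on the log2 scale, all smaller than the 3.73 of the proliferins. With 6 samples that share replicate numbers, high values of r were common, and 576 of the genes had one above 0.9.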

How the data were processed

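PolyA+ RNA of the 6 samples was sequenced by the authors as directional paired-end 51-base libraries. The authors aligned reads to mm9 with TopHat2 (0.5) and ran Cuffdiff (2.1.1) on refGene models, and the deposited tables hold FPKM with confidence bounds and a status for 23874 rows. How reads with several matches were divided is not given in the sources used here. Read numbers were not estimated from the FPKM.

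Samples were grouped by their labels. Members and gene lists were chosen with earlier results of these data known, and named genes by a rule (the members, overlapping rows, expressed relatives, receptors, AP-1 genes and defining markers, the 4 most variable fibroblast genes and the 10 genes most like the members). Rows of 1 name were summed, and 6 names with a failed status were left out. Genes with at least 0.5 FPKM in at least 3 samples were compared on log2(FPKM + 0.1), which understates changes of low genes, with limma 3.58.1 (R 4.3.3, eBayes with trend, Benjamini-Hochberg threshold 0.05), and the fits were tested on simulated data. Replicate numbers were tested with condition as a covariate. Same-numbered samples deviated together (r = 0.54, 0.61 and 0.51), from which the pairing comes, as the labels state none. The fibroblast level was compared by exact permutation. P-values measure the spread between these samples, biological triplicates per the study's methods. Transcripts were aligned with Biopython 1.88 in place of the proteins first planned. Alternatives were other pseudocounts, scalings, filters, row choices, the block, no trend, and leaving out samples.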

Additional observations from a re-analysis of the deposited data

How the results depend on the processing

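Genes called between the conditions (3 higher and 1 lower with tamoxifen) became 563 and 787 with the replicate block, and 604 and 595 with the replicate block and quantile normalization, an alternative chosen after seeing the data. They became 1 and 0 without a filter, 0 and 0 with at least 1 FPKM in all 6 samples, and the lower count was 0 with a pseudocount of 1. Leaving out 1 sample gave 2 to 5 higher and 0 to 7 lower. Genes differing between replicate numbers (8163) fell to 3 without a filter and to 2890 without the condition term, and were 4549 to 6059 when a number was left out, the fewest without replicate 2. The 20 such fibroblast markers became 0 without a filter and 14 to 20 without a number. The fibroblast level (−0.156) ranged from −0.514 to 0.186 when a sample was left out, with 0.053 without untreated replicate 2 and 0.186 without tamoxifen replicate 1. Leaving out 1 sample leaves the replicate numbers unequal between the conditions. In replicate 1 the level was 1.73 untreated and 1.61 with tamoxifen, against 2.6 to 2.87 in the other samples. How far this imbalance accounts for the changes was not tested.

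Under the alternatives run, the mean log2 difference between conditions ranged from −1.96 to 0.20 for the members' sum and from −2.05 to 0.17 for Prl2c2. For Prl2c3 the range was −1.60 to 0.78 and for Prl2c3 plus Prl2c4 −1.82 to 0.23. The sign changed when some samples were left out. With the replicate block these differences are those within replicate numbers given above. Leaving out 1 sample leaves the replicate numbers unequal between the conditions here too. The median log2 difference of all genes was −0.019, 0.081 after scaling to TPM and 0.016 after quantile normalization. What depth limits was not estimated, as read numbers are not in the tables.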
